A study of Mus musculus with 18 samples.

Results

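Cells make cholesterol and fatty acids from acetyl-CoA by enzyme chains whose genes share a transcriptional control system, the sterol regulatory element-binding proteins (SREBPs). SREBP-2, encoded by Srebf2, is best known for driving the genes of cholesterol synthesis, and SREBP-1, encoded by Srebf1, for those of fatty acid synthesis. Both are made as membrane precursors that travel with SCAP to the Golgi for cleavage, and INSIG proteins hold SCAP in the endoplasmic reticulum when sterols are plentiful. Fibroblasts in culture make sterols themselves and also take up lipoprotein cholesterol from serum, so these genes are active in most dividing fibroblast lines.

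The 28 genes described here were chosen by name, from a list of SREBP-pathway genes, among the 55401 genes of the deposited count tables, and all 28 were found and passed the filter on low counts. They comprised 7 genes of the mevalonate arm, 11 of the arm from farnesyl diphosphate to cholesterol, 3 control genes (Srebf1, Srebf2 and Insig1), the sterol transport gene Stard4, and 6 genes of fatty acid synthesis. They were compared in mRNA-seq of NIH/3T3, an immortal fibroblast line from mouse embryos, with 3 libraries from wild-type (WT) and 3 from XPO4 knockout (KO) cells. XPO4 is a nuclear exportin, and the KO line was made with CRISPR-Cas9, with both gene copies carrying the same edit. The KO was thus represented by a single genotype, and how many clones were sequenced is not given in the sources used here. A further 12 libraries of circular RNA (circRNA) junction reads, 2 for each genotype in whole cells, cytoplasm and nuclei, gave a separate readout at the same genes. The paper states that RNA for circRNA sequencing was first treated with RNase R, an enzyme that digests linear RNA. Nothing in the labels says that replicate libraries came from separate cultures, so the p-values below measure the spread between these libraries, which may be technical.

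The genotype of the mRNA libraries was taken from their titles, but the column heading inside each of the 6 count tables names the other genotype. The targeted gene could not settle this. Xpo4 had 712, 504 and 687 reads in the libraries labelled KO and 657, 614 and 685 in those labelled WT, and the groups overlapped (log2 fold change 0.18, SE 0.11, edgeR adjusted p = 0.193). The edit described for these cells is a short frameshifting deletion in the first exon, so reads over the rest of the gene do not check the label. KO and WT below mean the libraries labelled so, and every direction given for mRNA turns around if the column headings are right.

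The libraries held 16974062 to 22057323 reads counted in genes. KO replicate 2 stood farthest from the others, with a chi-square per gene of 9.74 and 11.3 against the other KO libraries, where the remaining pairs within a genotype gave 2.92 to 4.65. Of 14688 genes tested across the transcriptome, 48.7% passed an adjusted p of 0.05, 25.1% as higher and 23.6% as lower in KO, so a call on a single gene is common in this comparison. Fold changes are KO over WT on a log2 scale, from edgeR's quasi-likelihood test with p-values adjusted by the Benjamini-Hochberg method over all genes tested. Levels are CPM, reads per 1000000 counted reads after scaling with TMM factors, and levels compared between genes are FPKM, which is CPM divided by gene length in kilobases. That length joins all annotated exons of a gene and can exceed its longest transcript, so ranks between genes depend on it.

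The fibroblast identity of the libraries was clear. All 9 fibroblast markers were detected, with a summed level of 20580 to 24060 CPM, unscaled. The hepatocyte, epithelial, endothelial and erythroid markers summed to under 1 CPM in every library, the highest being 0.717. The 5 leukocyte markers summed to 7.41 to 8.07 CPM in KO and 11.9 to 14.6 CPM in WT. The 7 adipocyte markers summed to 41.1 to 44.4 CPM in KO and 16.0 to 19.2 CPM in WT. That sum came from Lpl and Fabp4, while the defining genes Adipoq, Plin1 and Pparg had 0 to 8 reads a library and Cebpa and Cidec had 0 in every library. Of 8 proliferation genes, 6 were lower in KO, 1 was higher (Cdk1) and 1 (Pcna) did not pass, beside 23.6% lower and 25.1% higher over all genes tested. Their summed level was 1464 to 1560 CPM in KO and 1695 to 1724 CPM in WT. In bulk libraries, fewer cells of a kind and less RNA per cell cannot be told apart. The part of these differences in the results on lipid synthesis genes was not tested.

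Promoter sequences of the genes are shown first, because the shared control of this pathway is usually described through them. RefSeq windows on GRCm38.p6, from 250 bases before to 50 after the start site, were available for 22 of the 28 genes (78.6%). Under 80% of the genes had one, so the check of motif shares over the whole list was void, and the counts below describe these 22 genes only. The SREBP element was searched as TCACNCCAC and the NF-Y box, the site of a factor known to act with SREBPs, as CCAAT, on both strands. TCACNCCAC was in 1 of 22 genes (Hmgcs1, starting 137 bases before the start site) and in 1.44% of 27025 genes with a window. CCAAT was in 19 of 22 genes and in 41.1% of all genes with a window. The GC box GGGCGG was in 18 of 22 and in 38.2% of all, and the E-box CACGTG in 4 of 22 and in 8.09% of all. A match is a run of letters and not a shown binding site, and genes without one may hold a variant of the element or one outside the window.

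The 250 bases before the start site are printed for the gene with an exact element (Hmgcs1), for 4 genes that were higher in KO (Insig1, Cyp51, Msmo1 and Ebp) and for 2 that were lower (Srebf2 and Fasn). Each runs 5′ to 3′ on the strand of its gene, and capitals mark TCACNCCAC and CCAAT, or ATTGG where CCAAT lies on the other strand. The windows are chr13:119690101-119690350 (plus) for Hmgcs1, chr5:28071162-28071411 (plus) for Insig1, chr5:4104698-4104947 (minus) for Cyp51, chr8:64733579-64733828 (minus) for Msmo1, chrX:8193513-8193762 (minus) for Ebp, chr15:82147019-82147268 (plus) for Srebf2 and chr11:120824548-120824797 (minus) for Fasn.
Hmgcs1: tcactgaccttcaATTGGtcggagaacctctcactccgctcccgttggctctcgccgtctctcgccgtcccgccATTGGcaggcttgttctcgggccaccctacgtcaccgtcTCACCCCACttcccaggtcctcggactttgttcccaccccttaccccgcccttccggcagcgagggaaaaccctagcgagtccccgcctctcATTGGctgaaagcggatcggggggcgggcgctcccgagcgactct
Insig1: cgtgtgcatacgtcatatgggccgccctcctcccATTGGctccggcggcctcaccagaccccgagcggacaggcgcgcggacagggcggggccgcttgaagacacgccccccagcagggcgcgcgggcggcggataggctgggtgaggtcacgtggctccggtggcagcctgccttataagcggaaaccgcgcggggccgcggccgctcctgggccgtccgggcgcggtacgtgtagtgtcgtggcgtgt
Cyp51: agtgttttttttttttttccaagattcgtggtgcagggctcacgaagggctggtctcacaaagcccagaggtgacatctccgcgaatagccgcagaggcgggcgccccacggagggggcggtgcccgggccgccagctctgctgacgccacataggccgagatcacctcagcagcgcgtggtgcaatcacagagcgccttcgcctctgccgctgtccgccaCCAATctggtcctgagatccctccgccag
Msmo1: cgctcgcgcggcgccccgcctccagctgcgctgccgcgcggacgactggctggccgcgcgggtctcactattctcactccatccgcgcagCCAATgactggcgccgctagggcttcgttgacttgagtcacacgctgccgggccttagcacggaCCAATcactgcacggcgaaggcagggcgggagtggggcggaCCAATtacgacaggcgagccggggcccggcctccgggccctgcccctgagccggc
Ebp: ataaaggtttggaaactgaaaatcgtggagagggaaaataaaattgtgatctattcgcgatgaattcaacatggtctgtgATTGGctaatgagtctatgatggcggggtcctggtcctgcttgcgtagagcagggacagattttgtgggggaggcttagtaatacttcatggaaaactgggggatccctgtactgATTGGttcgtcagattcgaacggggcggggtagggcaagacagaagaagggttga
Srebf2: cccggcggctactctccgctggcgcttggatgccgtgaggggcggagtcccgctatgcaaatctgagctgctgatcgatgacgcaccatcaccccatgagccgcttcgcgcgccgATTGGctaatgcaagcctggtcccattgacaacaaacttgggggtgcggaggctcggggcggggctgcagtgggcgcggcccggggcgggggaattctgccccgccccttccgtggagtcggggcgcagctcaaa
Fasn: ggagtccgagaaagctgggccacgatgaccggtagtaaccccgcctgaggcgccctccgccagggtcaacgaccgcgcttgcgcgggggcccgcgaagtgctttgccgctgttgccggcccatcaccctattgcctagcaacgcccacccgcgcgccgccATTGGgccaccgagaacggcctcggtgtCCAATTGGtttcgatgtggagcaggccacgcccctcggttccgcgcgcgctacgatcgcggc
All 7 printed windows held at least 1 CCAAT match. The 7 genes were picked, so they do not compare higher with lower genes. Among lower genes not printed, Hsd17b7 held matches before the start site, Acly held 1 only after it, and Acaca held none. The higher genes Pmvk, Tm7sf2 and Sc5d, also not printed, held a match before the start site. Msmo1, Hmgcs1 and Fasn each showed 3 such matches in the printed bases, and Cyp51, Insig1 and Srebf2 showed 1.

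The 28 genes did not move as a block. In KO, 8 were higher, 8 were lower and 12 did not pass the threshold, so that 57.1% passed beside the 48.7% of all genes tested. The shares by direction, 8 of 28 each, stood beside 25.1% higher and 23.6% lower for all genes. The changes were small, from a log2 fold change of -0.36 (Acaca) to 0.57 (Pmvk), and none of the 28 was both past the threshold and changed at least 1.5-fold, which held for 18.8% of all genes tested. The median log2 fold change was -0.02 over the 28 genes and -0.003 over all genes, and the median absolute change was 0.17 and 0.28. The 3 libraries of each genotype did not overlap for 18 of the 28 genes, 8 with KO above WT and 10 with KO below it, where 57.8% of all genes tested showed no overlap. Summed over the 28 genes, the level was 9520 to 9780 CPM in KO and 10120 to 10280 CPM in WT. The most abundant were Scd2, with means of 2174 CPM in KO and 2556 CPM in WT, and Acly, with 864 and 1022 CPM. Both are among the 8 lower genes, and 8 others were higher, so the sum does not give the direction of the list.

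**Figure D1:**
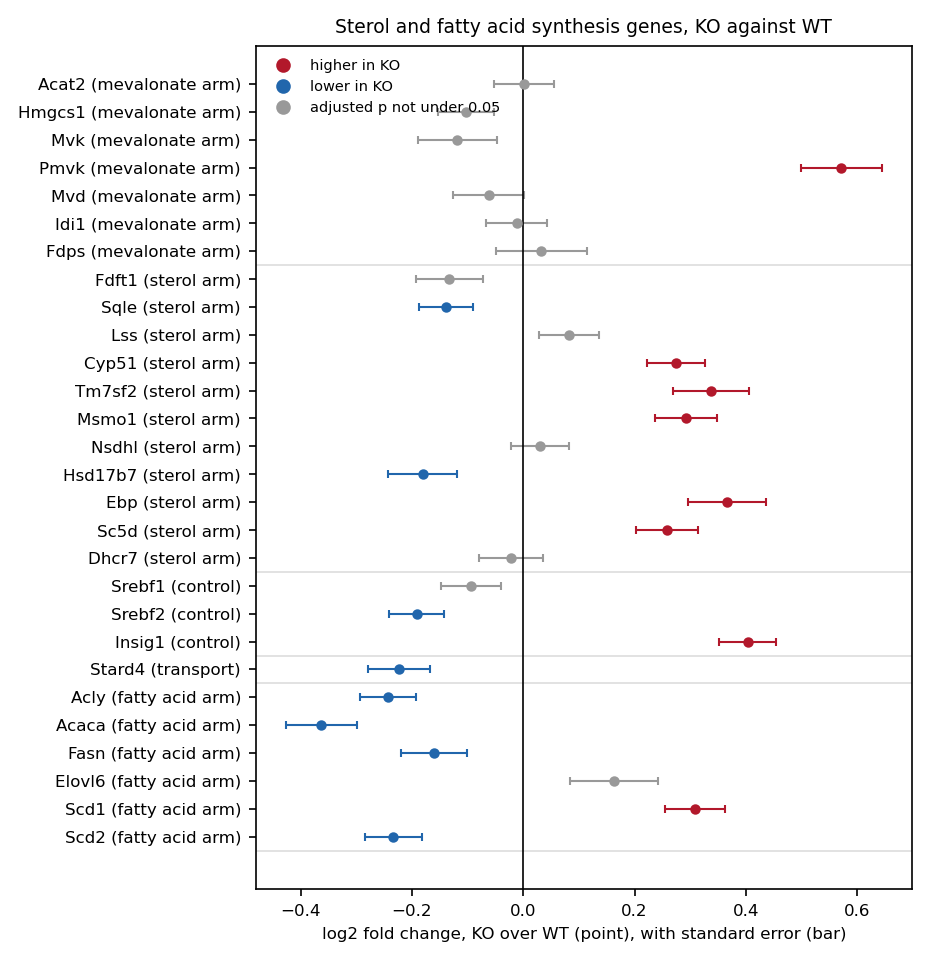
Log2 fold change of each of the 28 genes, KO over WT, on the horizontal axis, with genes grouped by role from top to bottom. Points are edgeR estimates and bars their standard errors over 3 libraries a genotype. Red genes were higher in KO, blue genes lower, and grey genes had an adjusted p of 0.05 or more. Of the 11 sterol arm genes 5 are red and 2 blue, and of the 6 fatty acid genes 4 are blue and 1 red.

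In the mevalonate arm, which builds isoprenoid units from acetyl-CoA, 1 of 7 genes passed the threshold, where 48.7% of all genes tested did. It was Pmvk (chr3:89454541-89469013, plus strand), the gene of phosphomevalonate kinase, and it was the member with the largest change. Pmvk had 73.9, 74.6 and 62.2 CPM in KO and 46.9, 48.2 and 46.7 CPM in WT. Every KO library lay above every WT library, with KO replicate 3 nearest to WT. The mean was 70.2 ± 6.95 CPM in KO and 47.3 ± 0.807 CPM in WT (SD, n = 3), a 1.49-fold difference (log2 0.57, SE 0.07, edgeR adjusted p = 2.72e-05).

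The other 6 mevalonate genes had log2 fold changes from -0.12 to 0.03 and did not pass. They were Acat2 (cytosolic acetoacetyl-CoA thiolase), Hmgcs1 (HMG-CoA synthase), Mvk (mevalonate kinase), Mvd (diphosphomevalonate decarboxylase), Idi1 (isopentenyl diphosphate isomerase) and Fdps (farnesyl diphosphate synthase). Acat2, at 535 ± 21.3 CPM in KO and 535 ± 16.7 CPM in WT, had the smallest fold change of the 28, with a log2 value of 0.001 and an SE of 0.05. Hmgcs1, whose promoter holds the exact element, had 375 to 394 CPM in KO and 403 to 421 CPM in WT. Its libraries did not overlap, but its change did not pass (log2 -0.10, SE 0.05, edgeR adjusted p = 0.111). Without KO replicate 2, Mvk passed at -0.20 (edgeR adjusted p = 0.00298, against -0.12 with all libraries) and Hmgcs1 passed at -0.12 (edgeR adjusted p = 0.0347). Some of these counts share sequence with other annotated genes. Fdps shared 26.7% of its exon bases with Gm43738, and Hmgcs1 shared 12.1% with Gm48342. Of the read-length windows, 24.6% for the Idi1 transcript, 25.4% for Acat2 and 9.44% for Hmgcs1 also occurred in transcripts of other genes. The values of these genes are less certain.

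The sterol arm makes squalene and turns it into cholesterol. Of 11 genes in this arm, 5 were higher in KO (Cyp51, Tm7sf2, Msmo1, Ebp and Sc5d), 2 were lower (Sqle and Hsd17b7) and 4 did not pass (Fdft1, Lss, Nsdhl and Dhcr7), beside 25.1% higher and 23.6% lower over all genes tested. The median log2 fold change of the 11 genes was 0.08. Their summed level was 2637, 2705 and 2650 CPM in KO and 2486, 2552 and 2525 CPM in WT.

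Cyp51 encodes lanosterol 14-alpha-demethylase, the first enzyme after lanosterol. It had 563, 585 and 562 CPM in KO and 454, 485 and 475 CPM in WT. The KO libraries were all above the WT libraries, and the means of 570.0 ± 13.0 and 471 ± 15.8 CPM (SD, n = 3) differed by 0.27 on the log2 scale (SE 0.05, edgeR adjusted p = 0.000661). Tm7sf2, a sterol C14-reductase, had 60.5, 62.2 and 54.2 CPM in KO and 45.7, 48.9 and 45.5 CPM in WT. The groups again did not overlap (log2 0.34, SE 0.07, edgeR adjusted p = 0.00121), although 12.1% of the exon bases of Tm7sf2 are shared with Vps51 and the counting did not use strand. Msmo1, the C4-methylsterol oxidase, had 395, 422 and 393 CPM in KO and 313, 342 and 332 CPM in WT. Its lowest KO library was above its highest WT library (log2 0.29, SE 0.06, edgeR adjusted p = 0.000735).

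Ebp, which encodes the sterol isomerase that moves the double bond of the sterol ring, was among the least abundant of the group. It had 46.8, 54.4 and 48.7 CPM in KO and 38.3, 38.5 and 39.5 CPM in WT. KO replicate 2 was the highest, and all KO libraries were above WT (log2 0.37, SE 0.07, edgeR adjusted p = 0.000782). Sc5d, the lathosterol oxidase that acts next on this intermediate, had 112, 112 and 120.4 CPM in KO and 96.1, 94.1 and 98.0 CPM in WT. The groups did not overlap, with a log2 fold change of 0.26 (SE 0.06, edgeR adjusted p = 0.00189). These 5 genes and the other 3 that were higher kept their direction and passed the threshold under all 14 alternative settings, each of the 6 libraries left out in turn included.

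The 2 genes of this arm that were lower had smaller changes. Sqle encodes squalene epoxidase, a rate-limiting enzyme of the arm. It had 530, 537 and 544 CPM in KO and 596, 589 and 589 CPM in WT. The libraries did not overlap, but the change of -0.14 on the log2 scale (SE 0.05, edgeR adjusted p = 0.0289) did not pass when any one of 5 of the 6 libraries was left out, KO replicate 2 being the exception, with adjusted p up to 0.106 (without KO replicate 1). Hsd17b7, the 3-ketosteroid reductase of the pathway, had 117, 102 and 115 CPM in KO and 128, 125 and 125 CPM in WT. Its KO libraries were below its WT libraries, with KO replicate 2 the lowest (log2 -0.18, SE 0.06, edgeR adjusted p = 0.0275). Without KO replicate 2 the Hsd17b7 change was -0.11 with an edgeR adjusted p of 0.0712, and without any one of the WT libraries the adjusted p was 0.0691 to 0.0859.

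Cyp51 and Sqle, which had a like FPKM in WT, were set side by side within each library, where scaling plays no part. This ratio was chosen after the values were seen. Reads per kilobase of Cyp51 were 1.34, 1.37 and 1.30 times those of Sqle in KO and 0.957, 1.03 and 1.01 times in WT. The ratio was 1.33 ± 0.0351 in KO and 1.00 ± 0.0398 in WT (SD, n = 3). That the groups did not overlap follows from the opposite changes of Cyp51 and Sqle given above and adds no support to them.

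The genes of the sterol arm that did not pass were Fdft1 (squalene synthase), Lss (lanosterol synthase), Nsdhl (a sterol C4-decarboxylase) and Dhcr7, which makes cholesterol from its last precursor in one branch. Nsdhl, at 194 ± 5.24 CPM in KO and 190 ± 4.02 CPM in WT, and Dhcr7, at 61.4 ± 2.14 and 62.4 ± 1.23 CPM (SD, n = 3), had changes of 0.03 and -0.02. Fdft1 and Lss passed only without KO replicate 2 or with the trend of each library with gene length removed. Without KO replicate 2, Fdft1 had a log2 fold change of -0.19 (edgeR adjusted p = 0.00234) and Lss one of 0.12 (edgeR adjusted p = 0.0312). Fdft1 shares 18.3% of its exon bases with Ctsb and the counting did not use strand, so its value is less certain.

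**Figure D2:**
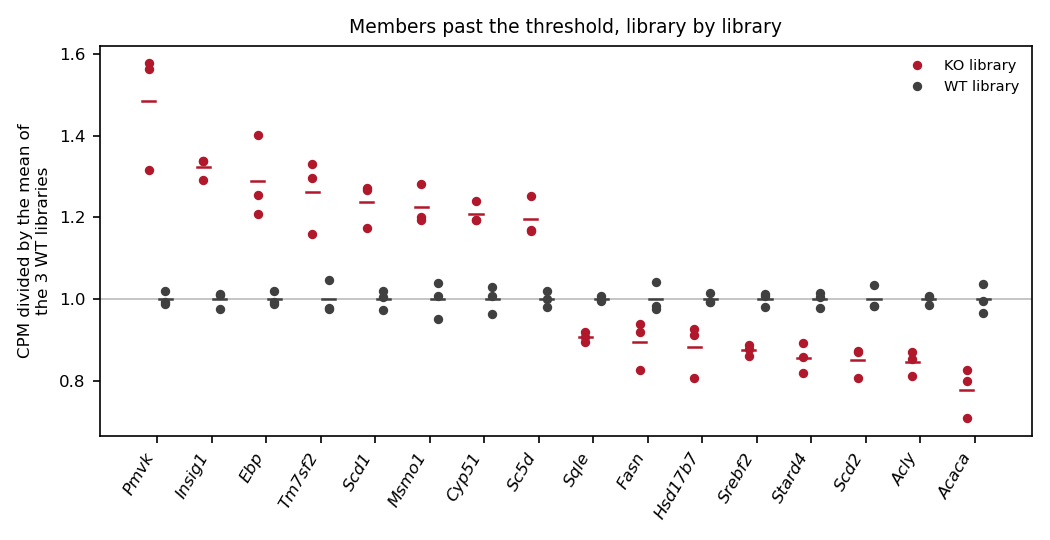
CPM in each library divided by the mean of the 3 WT libraries (vertical axis, no unit) for the 16 genes past the threshold, ordered by fold change. Red points are the 3 KO libraries and dark points the 3 WT libraries, and short bars are means. The ratio of means runs from 1.49 for Pmvk to 0.778 for Acaca, and the KO and WT points are apart for each of these genes.

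The control genes moved in opposite directions. Srebf2 was lower in KO, Insig1 was higher, and Srebf1 did not pass the threshold. Srebf2 (chr15:82147181-82205379, plus strand) had 551, 539 and 557 CPM in KO and 631, 615 and 634 CPM in WT. The libraries were well apart, and the means of 549 ± 8.82 and 627 ± 10.2 CPM (SD, n = 3) differed by -0.19 on the log2 scale (SE 0.05, edgeR adjusted p = 0.00561). Srebf1, which encodes SREBP-1, had 96.0, 94.5 and 92.5 CPM in KO and 103, 98.3 and 101 CPM in WT. Every KO library was below every WT library, but the change of -0.09 (SE 0.05, edgeR adjusted p = 0.163) did not pass.

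Insig1 (chr5:28071363-28078662, plus strand) is itself a well known target of SREBPs as well as the gene of their retention factor. It had 324, 323 and 312 CPM in KO and 236, 244 and 245 CPM in WT. The lowest KO library stood above the highest WT library, and the means of 319.6 ± 6.60 and 242 ± 4.87 CPM (SD, n = 3) were 1.32-fold apart (log2 0.40, SE 0.05, edgeR adjusted p = 2.36e-05). Per kilobase, Insig1 was 1.37, 1.39 and 1.30 times the level of Srebf2 in the KO libraries and 0.869, 0.921 and 0.898 times in the WT libraries. That ratio, chosen after the values were seen, placed Insig1 above Srebf2 in each KO library and below it in each WT library. Its shift between genotypes follows from the opposite changes of Insig1 and Srebf2 and adds no support to them.

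Stard4, on chromosome 18, encodes a small carrier that moves cholesterol between membranes, and it was the one transport gene of the list. It had 142, 136 and 148 CPM in KO and 168, 166 and 162 CPM in WT. It was lower in all KO libraries, with a log2 fold change of -0.22 (SE 0.06, edgeR adjusted p = 0.00461).

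In fatty acid synthesis, 4 of 6 genes were lower in KO, 1 was higher and 1 did not pass, beside 23.6% lower and 25.1% higher over all genes tested. The call of 1 of the 4, Fasn, was lost under 6 of the 14 alternative settings. Their summed level was 4634, 4250 and 4644 CPM in KO and 5233, 5023 and 5002 CPM in WT, and the median log2 fold change was -0.20. The genes that were lower were Acly, which makes cytosolic acetyl-CoA from citrate, Acaca, which makes malonyl-CoA, Fasn, the fatty acid synthase, and Scd2, a stearoyl-CoA desaturase.

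Acly had 890, 829 and 873 CPM in KO and 1031, 1028 and 1007 CPM in WT. The groups did not overlap (log2 -0.24, SE 0.05, edgeR adjusted p = 0.00137). Acaca had 160, 142 and 165 CPM in KO and 208, 194 and 200 CPM in WT (log2 -0.36, SE 0.06, edgeR adjusted p = 0.00041). Its KO libraries were all below its WT libraries, with KO replicate 2 the lowest. Acaca (chr11:84129672-84401651, plus strand) has the greatest summed exon length of the list, and 34.0% of the read-length windows of its transcript also occurred in Gm5182, so some of its reads may have been left out as mapping to more than 1 place. With the trend of each library with gene length removed, the log2 fold change of Acaca was -0.20, smaller in size than that of Acly, Scd2 and Stard4. Fasn had 763, 687 and 780 CPM in KO and 865, 810 and 816 CPM in WT. These libraries were apart as well, but by less (log2 -0.16, SE 0.06, edgeR adjusted p = 0.0376), and the Fasn change did not pass when KO replicate 1, KO replicate 2 or any WT library was left out (edgeR adjusted p = 0.0505 to 0.149).

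The desaturases, which put the double bond into stearate and palmitate, went opposite ways although their genes are neighbours on chromosome 19. Scd1 (chr19:44394455-44407879, minus strand) had 408, 377 and 407 CPM in KO and 323, 327 and 312 CPM in WT. All KO libraries were above WT, at 397 ± 17.6 and 321 ± 7.50 CPM (SD, n = 3), with a log2 fold change of 0.31 (SE 0.05, edgeR adjusted p = 0.000382). Scd2 (chr19:44293674-44306864, plus strand) had 2234, 2065 and 2224 CPM in KO and 2646, 2513 and 2511 CPM in WT. All KO libraries were below WT, with a log2 fold change of -0.23 (SE 0.05, edgeR adjusted p = 0.00215). Within a library, the level of Scd2 per kilobase was 4.91, 4.91 and 4.90 times that of Scd1 in KO and 7.34, 6.88 and 7.20 times in WT, a ratio chosen after the values were seen. The ratio was 4.90 ± 0.005 in KO and 7.14 ± 0.238 in WT (SD, n = 3). Its shift follows from the opposite changes of Scd1 and Scd2 and adds no support to them.

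Elovl6, which elongates palmitate to stearate, was the fatty acid gene that did not pass. It had 180, 151 and 194 CPM in KO and 161, 152 and 156 CPM in WT, and KO replicate 2 was the lowest of the 6 libraries (log2 0.16, SE 0.08, edgeR adjusted p = 0.105). Without KO replicate 2 its log2 fold change was 0.26 with an edgeR adjusted p of 8.98e-05. The same library left out raised the counts over the 28 genes from 8 to 10 higher and from 8 to 9 lower. Without KO replicate 2, 3847 of all 15218 genes tested were higher and 3550 lower.

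Longer genes tended to have lower fold changes among the 28 genes. Across these genes, Spearman's rho of gene length with log2 fold change was -0.44, and it was -0.06 across all genes tested, a description over genes that share the same 6 libraries. Over all genes, cut by length into 4 groups of like size, the median log2 fold change was 0.04 in the shortest (57 to 2276 bases) and -0.08 in the longest (6371 bases and more). With each library's trend with length removed by an offset, 10 of the 28 genes were higher and 11 lower in KO. Over all 14688 genes tested, 3882 were higher and 3753 lower with this offset. Of the 16 genes that passed without the offset, Fasn did not pass with it (log2 -0.08, edgeR adjusted p = 0.114). Genes that passed only with the offset were Hmgcs1, Mvk, Mvd and Fdft1 (lower) and Lss and Elovl6 (higher).

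The level of the 28 genes per unit of length spanned nearly 2 orders of magnitude. Scd2 was the most abundant at 398 ± 17.4 FPKM in KO and 468 ± 14.2 FPKM in WT (SD, n = 3). Acat2 followed at 210.4 ± 8.38 and 210.2 ± 6.55 FPKM, then Acly at 164 ± 5.95 and 194 ± 2.39 FPKM. By joined exon length, Cyp51 and Sqle were level in WT at 107 ± 3.58 and 107 ± 0.700 FPKM. In KO, Cyp51 at 129 ± 2.95 FPKM stood above Sqle at 96.8 ± 1.28 FPKM. Insig1, at 103 ± 2.11 FPKM in KO and 78.1 ± 1.57 FPKM in WT, ranked above Srebf2 (76.4 ± 1.23 FPKM) in KO and below it (87.2 ± 1.42 FPKM) in WT. Srebf2 was more abundant than Srebf1, which had 16.7 ± 0.306 FPKM in KO and 17.9 ± 0.402 FPKM in WT. At the low end were Tm7sf2 (13.4 ± 0.958 and 10.6 ± 0.430 FPKM), Dhcr7 (10.5 ± 0.367 and 10.7 ± 0.215 FPKM), Acaca (9.12 ± 0.715 and 11.7 ± 0.412 FPKM) and Fdps (6.41 ± 0.262 and 6.27 ± 0.548 FPKM), each given for KO and then WT. In WT, Tm7sf2 and Dhcr7 differed by less than their spread. Their order depends on the length used, since their joined exons span 4403 and 5817 bases and their longest transcripts 3083 and 2815 bases.

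**Figure D3:**
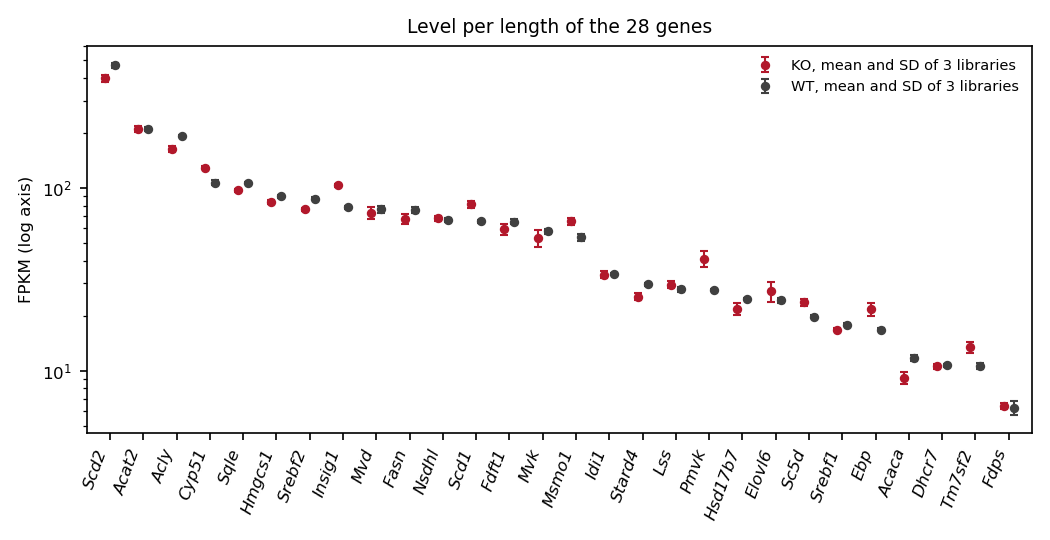
Level per length of the 28 genes in FPKM on a log axis, ordered by the WT mean. Points are means of 3 libraries and bars are SD, red for KO and dark for WT. Scd2 leads at 398 FPKM in KO and 468 FPKM in WT, and Fdps is lowest at 6.41 and 6.27 FPKM.

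The other genes of the pathway numbered 41 in all, and 38 of them were tested. Of the 38, 15 were higher in KO, 10 were lower and 13 did not pass, so 65.8% passed beside 48.7% of all genes. Not tested for low counts were Abcg1, Nr1h3 and Smpdl3a, with 0 to 9 reads a library.

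In the group that processes SREBPs or takes part in sterol-regulated protein degradation, 3 of 8 genes were higher and 2 were lower. Over all genes tested, 25.1% were higher and 23.6% lower. Scap, the escort of the SREBP precursors, had 74.5, 75.4 and 68.7 CPM in KO and 89.8, 75.9 and 84.6 CPM in WT. KO replicate 2 and WT replicate 2 lay within 1 CPM of each other, and the call (log2 -0.20, SE 0.07, edgeR adjusted p = 0.0325) was lost without KO replicate 1 or 3 or WT replicate 1 or 3, with edgeR adjusted p up to 0.156, and also with DESeq2 (adjusted p = 0.0646) and with the length trend removed (edgeR adjusted p = 0.0609). Mbtps1, the site-1 protease that makes the first cut in SREBPs, was lower at 240 ± 8.02 CPM in KO against 284 ± 4.65 CPM in WT (log2 -0.24, SE 0.05, edgeR adjusted p = 0.00166). Insig2, the second INSIG gene, was higher at 52.9 ± 1.86 against 43.3 ± 0.811 CPM (log2 0.29, SE 0.06, edgeR adjusted p = 0.0017), in the same direction as Insig1. Faf2, a factor of protein degradation at the endoplasmic reticulum, was higher by 0.32 (SE 0.06, edgeR adjusted p = 0.000387).

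Among the 6 genes of the sterol and isoprenoid branches, all tested, 2 were higher and 1 was lower. The shares over all genes tested were 25.1% higher and 23.6% lower. Nus1, a subunit of the enzyme that makes dolichol precursors, had 149, 143 and 141 CPM in KO and 74.1, 81.2 and 75.7 CPM in WT. The libraries were far apart, and the log2 fold change of 0.91 (SE 0.06, edgeR adjusted p = 3.92e-08) exceeded that of any of the 28 genes. Acat1, the mitochondrial thiolase, was higher by 0.48 (SE 0.06, edgeR adjusted p = 2.67e-05), where its cytosolic counterpart Acat2 had a change of 0.001. Lbr, a nuclear envelope protein that also acts as a sterol C14-reductase, fell by 0.32 on the log2 scale (SE 0.07, edgeR adjusted p = 0.00157), while Tm7sf2, with the same reductase activity, was higher by 0.34.

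Of the 11 other genes of fatty acid metabolism, 6 were higher, 3 were lower and 2 did not pass. Beside these stood 25.1% higher and 23.6% lower over all genes tested. Me1, malic enzyme, which supplies NADPH, was higher at 84.5 ± 0.586 CPM in KO against 58.0 ± 0.821 CPM in WT (log2 0.54, SE 0.05, edgeR adjusted p = 2.65e-06). Lpin1, a phosphatidate phosphatase, was lower at 54.0 ± 0.784 against 83.6 ± 3.96 CPM (log2 -0.63, SE 0.06, edgeR adjusted p = 1.51e-06). Acss2, which makes acetyl-CoA from acetate, was lower by a log2 change of -0.41 (SE 0.08, edgeR adjusted p = 0.000667), in the same direction as Acly, the other source of cytosolic acetyl-CoA.

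LXRs are nuclear receptors that sense oxysterols and drive efflux genes. Of the 4 tested genes of the LXR and efflux group, 2 were higher and 2 were lower, beside 25.1% and 23.6% over all genes tested. Abca1, the transporter that loads cholesterol onto apolipoproteins, had 2.80, 2.20 and 4.29 CPM in KO and 20.4, 18.9 and 18.7 CPM in WT. WT was 6.26-fold above KO, with no overlap (log2 -2.65, SE 0.17, edgeR adjusted p = 3.92e-08). Mylip, the ligase that degrades lipoprotein receptors, was higher by 0.40 (SE 0.06, edgeR adjusted p = 5.4e-05), and Lpcat3, a phospholipid acyltransferase, was lower by a log2 change of -0.27 (SE 0.06, edgeR adjusted p = 0.00308). With 4 tested genes and calls common in both directions over all genes, nothing is drawn for the group from this split.

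In the group of 9 sterol handling genes, 2 were higher, 2 were lower and 5 did not pass. All genes tested gave 25.1% higher and 23.6% lower. Vldlr, a receptor for triglyceride-rich lipoproteins, had 4.58, 7.32 and 5.70 CPM in KO and 23.1, 21.9 and 22.8 CPM in WT (log2 -1.94, SE 0.13, edgeR adjusted p = 8.15e-08). Lrp1, a large endocytic receptor, had 1503, 1091 and 1416 CPM in KO and 805, 711 and 731 CPM in WT (log2 0.84, SE 0.10, edgeR adjusted p = 9.8e-06). Both were without overlap between genotypes, and they moved in opposite directions. Soat1, which esterifies cholesterol for storage, was lower at 121 ± 4.35 against 157 ± 0.580 CPM (log2 -0.37, SE 0.05, edgeR adjusted p = 8.13e-05).

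**Figure D4:**
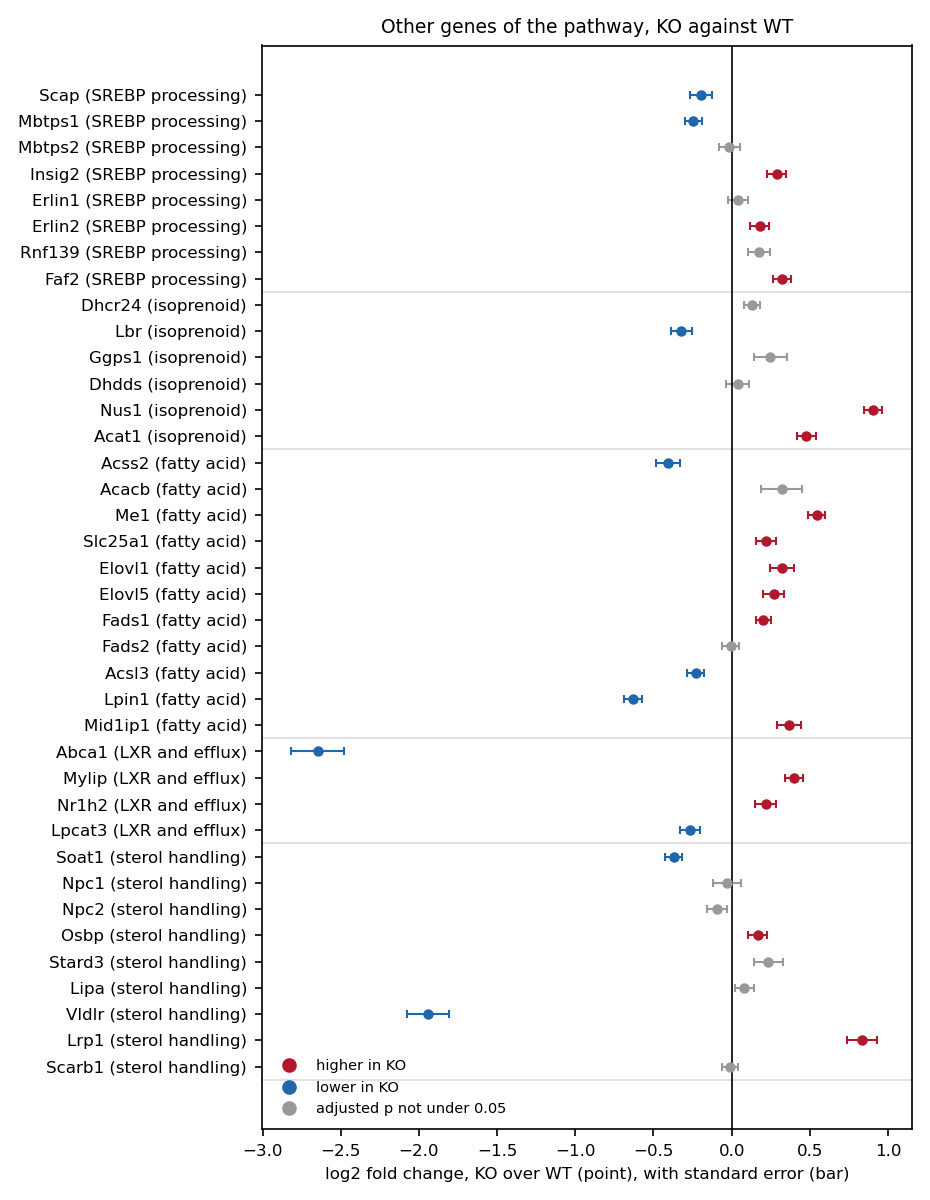
Log2 fold change, KO over WT, of the 38 tested genes of the wider pathway on the horizontal axis, grouped by role from top to bottom. Points are edgeR estimates, bars are standard errors over 3 libraries a genotype, and colours mark genes higher in KO (red), lower (blue) or with an adjusted p of 0.05 or more (grey). Abca1 at -2.65 and Vldlr at -1.94 lie farthest to the left, and Nus1 at 0.91 and Lrp1 at 0.84 farthest to the right.

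CircRNAs, closed loops made by back-splicing, are counted by reads across their junctions, and they gave a readout at the same genes from separate libraries. Of the 28 genes, 14 hosted 32 circRNAs in these libraries, and each of the 32 joined 2 exon boundaries of the GENCODE annotation. Junction reads of the 32 circRNAs were 137 and 134 in KO cytoplasm, 108 and 140 in WT cytoplasm, 60 and 69 in KO whole cells, and 85 and 89 in WT whole cells. Per 10000 junction reads of the library, these were 27.1 and 21.2 in KO and 13.9 and 17.1 in WT cytoplasm, and 10.3 and 13.7 in KO and 14.7 and 16.2 in WT whole cells. By this rate the KO values were the higher ones in the cytoplasm and the lower ones in whole cells. In the cytoplasm this direction rests on the library totals, since the reads themselves overlapped between genotypes. Those totals were 50629 and 63335 junction reads in KO cytoplasm and 77818 and 81941 in WT cytoplasm. None was listed in the 4 nuclear libraries, whose totals of 2189 to 4383 junction reads were far below the 50341 to 81941 of the others. The tables appear to list a circRNA only above some total, since no listed circRNA had fewer than 3 reads over the 4 nuclear libraries, 5 over the 4 cytoplasmic and 4 over the 4 whole-cell libraries, so a 0 means that a circRNA was not listed and is no limit on its level. If so, a circle with few reads can be listed through the genotype where its reads were high. Contrasts of single circles between genotypes, and sums over such circles, are therefore values only. With 2 libraries a group, an exact permutation test cannot give a p below 0.33, and the circRNA values are given without one.

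Srebf2 hosted the most circRNAs, 9, with 49 and 47 junction reads in KO cytoplasm and 27 and 34 in WT cytoplasm. Per 10000 junction reads of the library these were 9.68 and 7.42 in KO and 3.47 and 4.15 in WT. The summed KO values were the higher ones, but circles in the sum may be listed through the genotype where their reads were high. No direction is therefore drawn for the gene. At chr15:82178717-82182257, for example, reads were 10 and 7 in KO cytoplasm and 1 and 0 in WT cytoplasm. Single circles went the other way, with 0 and 2 reads in KO cytoplasm and 5 and 12 in WT cytoplasm at chr15:82175097-82182257, and 0 and 2 against 10 and 13 at chr15:82181981-82192374. In whole cells the Srebf2 circRNAs had 10 and 14 reads in KO and 9 and 11 in WT. Per 10000 junction reads the whole-cell values of the genotypes overlapped, the KO libraries at 1.72 and 2.78.

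Acly hosted 6 circRNAs, with 29 and 24 reads in KO cytoplasm and 13 and 12 in WT cytoplasm. One of these, at chr11:100492505-100495964, had 10 and 9 reads in KO cytoplasm and was listed in no other library. Another at chr11:100484600-100495964, which ends at the same base, had 1 and 1 reads in KO cytoplasm and 10 and 11 in WT cytoplasm. Circles of the same gene thus differed in opposite directions between the same libraries. Such circles may be listed through the genotype where their reads were high, so no direction is drawn for the gene.

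The 3 circRNAs of Acaca had 5 and 14 reads in KO cytoplasm and 28 and 29 in WT cytoplasm. Cyp51 had 13 and 13 in KO cytoplasm against 17 and 34 in WT, and per 10000 junction reads the genotypes overlapped, at 2.57 and 2.05 in KO and 2.18 and 4.15 in WT. Its circles differed in direction in the cytoplasm. The circle at chr5:4091845-4092507 had 6 and 8 reads in KO and 15 and 33 in WT, and the circle at chr5:4086460-4092507 had 7 and 5 in KO and 2 and 1 in WT. Insig1 hosted 1 circRNA (chr5:28073547-28074648) with 2 and 2 reads in KO cytoplasm and 10 and 13 in WT cytoplasm, and 4 and 6 against 5 and 4 in whole cells. Its KO cytoplasmic counts were the lower ones, but the circle may be listed through the genotype where its reads were high, so these are values only. The circle of Mvd (chr8:122439377-122440252) had 16 and 14 reads in KO cytoplasm and 1 and 1 in WT cytoplasm, under the same limit.

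**Figure D5:**
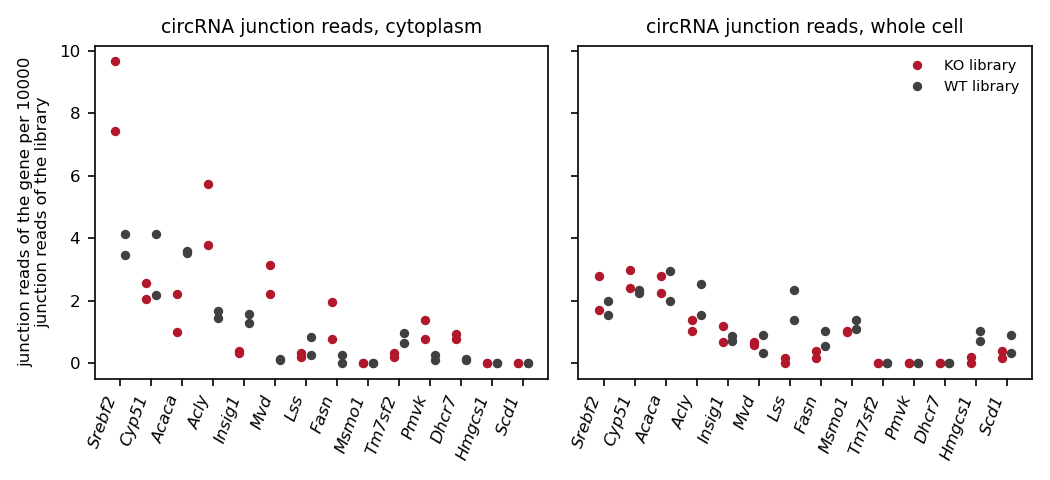
Junction reads of each host gene per 10000 junction reads of its library (vertical axis) in the cytoplasm (left) and whole cells (right), for the 14 genes that hosted a circRNA. Each point is 1 library, red for KO and dark for WT, 2 a group. Srebf2 has the highest cytoplasmic values, 9.68 and 7.42 in KO and 3.47 and 4.15 in WT, and its whole-cell values overlap.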

How the data were processed

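The authors counted reads per gene in 6 mRNA-seq libraries with featureCounts (version 2.0.0 per the file headers) after HISAT2 mapping to GRCm38, and deposited raw counts with no normalization. Paired reads were counted over exons without a strand option. For circRNAs the authors ran find_circ and deposited counts of junction reads per circRNA. The titles gave each library's group.

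From the deposited counts, genes were tested with edgeR (version 4.0.16, in R 4.3.3): TMM factors, its filter on low counts and the quasi-likelihood test of 3 KO against 3 WT libraries, with Benjamini-Hochberg adjustment over 14688 genes and a threshold of 0.05. DESeq2 (version 1.42.0), other scalings, no filter, the replicate number as a block, leaving out each library, and, chosen after the data were seen, offsets for gene length or GC content were alternatives. The test was checked on simulated data. GENCODE names matched 55141 of 55401 genes. Members and gene lists were chosen with earlier results of these data known. All 28 members are named, and per-library values are given for those past the threshold and for Srebf1, Srebf2, Insig1 and Scap. From each wider list at most the 3 genes with the smallest adjusted p are described, beside Scap. Some genes of the wider lists are not reported here and stand in none of their counts. Read-length windows of 150 bases were searched in all other annotated transcripts. CircRNAs were assigned to a gene when both ends lay within it.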

Additional observations from a re-analysis of the deposited data

How the results depend on the processing

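Of the 16 genes past the threshold, 13 kept their call under all 14 alternatives (8 higher, 5 lower), and the exceptions were Sqle, Hsd17b7 and Fasn. The count of genes lower in KO was 5 to 9 when 1 library was left out, with 5 without WT replicate 1, 2 or 3, and the count higher was 8 to 10. Over all genes, these fits called 2901 to 3550 lower and 3226 to 3847 higher, of 14908 to 15218 tested. Other scalings and DESeq2 left both counts of the 28 genes at 8. The median log2 fold change of the 28 genes, -0.017, was -0.042 with upper-quartile scaling, -0.061 with the length trend removed, and -0.0317 to 0.0012 when 1 library was left out, so its sign is not fixed. The wider pathway lists had 13 to 19 genes higher and 9 to 11 lower over these alternatives. Searching CACNCCAC in place of TCACNCCAC found 3 promoters (Hmgcs1, Insig1 and Acat2) instead of 1, beside 7.12% of all genes. With the replicate number as a block the counts were 8 higher and 8 lower among the 28 genes, and 18 higher and 10 lower in the wider lists. Over all 14688 genes tested, 3660 were higher and 3464 lower with this block. Deviations of same-numbered KO and WT libraries correlated at 0.06, 0.04 and -0.09, so no pairing by number was visible. This cannot show whether same-numbered libraries were handled together. The cause of these shifts was not tested. Counting depth limits the circRNA values, with 60 to 140 junction reads a library over all 28 genes. Xpo4, which did not pass with all libraries, passed as higher without KO replicate 2 (log2 0.34, edgeR adjusted p = 0.000252) and with the length trend removed (log2 0.26, edgeR adjusted p = 0.0143).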
